A study of Mus musculus with 10 samples.

Results

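The nuclear genes of the respiratory chain and the coactivators Ppargc1a and Ppargc1b were followed in splenic type 2 conventional dendritic cells (cDC2). The members were every gene measured by a probe set with 1 symbol whose symbol starts with Nduf, Uqcr, Atp5, Cox4, Cox5, Cox6, Cox7 or Cox8, plus Cyc1, Cycs, Ppargc1a and Ppargc1b, which gave 89 of 19938 genes. By role they were 6 core subunits, 28 accessory subunits and 7 assembly factors of complex I, 9 subunits of complex III, cytochrome c (Cycs), 11 general subunits and 8 tissue-restricted isoforms of complex IV, 17 subunits of ATP synthase and 2 coactivators. The cDC2 had been sorted from digested, CD11c-enriched spleens of 4 groups of mice and measured on 10 one-colour arrays. The groups were Notch2-11cKO SRBC (3 arrays), WT SRBC (3 arrays), Notch2-11cKO Untreated (2 arrays) and WT Untreated (2 arrays). Notch2-11cKO mice carried CD11c-Cre and floxed alleles of Notch2 (Notch2f/f), so Cre acts in cells that express CD11c, other dendritic cells and some macrophages included, while WT mice are labelled only as wild type. SRBC mice had received 200000000 sheep red blood cells, a particulate antigen, intraperitoneally 24 hours before analysis; the labels give no age, no strain and no vehicle for the untreated mice. Nothing in the labels says that the arrays of a group came from separate mice, so p-values measure the spread between arrays, which may be technical.

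The respiratory chain passes electrons from NADH (complex I) and succinate (complex II) through ubiquinone to complex III, cytochrome c and complex IV, and the proton gradient so built drives ATP synthase. PGC-1alpha, encoded by Ppargc1a, and its relative PGC-1beta, encoded by Ppargc1b, are coactivators that bind nuclear receptors and factors such as NRF-1 and raise transcription of mitochondrial genes in muscle, brown fat and liver. Ppargc1a is a known target of cyclic AMP and CREB signalling. In dendritic cells, activation is known to shift energy metabolism from respiration toward glycolysis.

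Of the members, 72 had a promoter in RefSeq's table (GRCm38.p6, 250 bases before to 50 bases after the start). Members past the threshold in at least 1 comparison and with a promoter there are shown first, 5′ to 3′ on the strand of the gene, because the results turn on these genes. Capitals mark matches, on either strand, to 7 motifs: the NRF-1 core GCATGCGC, the GABP (ETS) motif CCGGAAG, the YY1 motif AAGATGGC, the CREB response element (CRE) TGACGTCA, its short form TGACG (which every CRE also holds), the ERR motif AAGGTCA and the motif GTGGGAA of RBPJ, the DNA-binding partner of Notch.
Ppargc1a, chr5:51567676-51567975, minus strand: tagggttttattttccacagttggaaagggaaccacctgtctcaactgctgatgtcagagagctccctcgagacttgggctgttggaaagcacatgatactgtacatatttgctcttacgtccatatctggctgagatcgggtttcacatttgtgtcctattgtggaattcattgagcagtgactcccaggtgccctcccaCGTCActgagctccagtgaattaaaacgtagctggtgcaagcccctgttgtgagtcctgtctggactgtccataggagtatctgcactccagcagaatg
Cox8a, chr19:7217567-7217866, minus strand: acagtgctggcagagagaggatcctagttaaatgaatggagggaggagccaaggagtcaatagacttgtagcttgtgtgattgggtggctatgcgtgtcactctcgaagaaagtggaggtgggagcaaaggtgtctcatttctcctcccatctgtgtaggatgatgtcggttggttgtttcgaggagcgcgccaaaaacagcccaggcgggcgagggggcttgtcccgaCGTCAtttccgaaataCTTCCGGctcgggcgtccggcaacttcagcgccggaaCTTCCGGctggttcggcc
Uqcr11, chr10:80406772-80407071, minus strand: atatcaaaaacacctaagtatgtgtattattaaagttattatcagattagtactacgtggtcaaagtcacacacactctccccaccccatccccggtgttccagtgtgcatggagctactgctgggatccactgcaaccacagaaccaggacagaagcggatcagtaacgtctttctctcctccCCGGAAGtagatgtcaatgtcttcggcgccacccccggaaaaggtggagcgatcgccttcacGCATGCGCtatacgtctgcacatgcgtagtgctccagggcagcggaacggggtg
Ndufv3, chr17:31519865-31520164, plus strand: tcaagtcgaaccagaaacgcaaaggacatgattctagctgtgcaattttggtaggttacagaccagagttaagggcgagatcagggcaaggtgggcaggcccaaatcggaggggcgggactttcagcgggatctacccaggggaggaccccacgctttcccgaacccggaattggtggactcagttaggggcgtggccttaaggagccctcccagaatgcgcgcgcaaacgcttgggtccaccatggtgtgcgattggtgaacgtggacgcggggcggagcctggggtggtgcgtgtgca
Ndufaf7, chr17:78936885-78937184, plus strand: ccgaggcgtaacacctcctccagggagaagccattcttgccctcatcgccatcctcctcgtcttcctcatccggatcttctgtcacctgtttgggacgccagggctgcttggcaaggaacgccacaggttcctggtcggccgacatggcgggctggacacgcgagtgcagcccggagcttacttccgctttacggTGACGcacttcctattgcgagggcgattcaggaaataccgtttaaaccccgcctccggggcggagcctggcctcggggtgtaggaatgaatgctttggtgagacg

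The only Ppargc1a window in the promoter table held 1 short CRE, read here as CGTCA. Any other start site of Ppargc1a was not searched, so this does not show which motifs the gene lacks. Uqcr11 held an NRF-1 core and a GABP motif, Cox8a held 2 GABP motifs and a short CRE, Ndufaf7 held a short CRE, and none of the 7 motifs was found in the Ndufv3 window. Motifs were counted by gene, and a gene with more than 1 promoter counted if any of them matched. The RBPJ motif was found for 4 of the 72 members (5.56%, against 7.25% of 27025 genes) and in none of the 5 promoters shown. The NRF-1 core was found for 12 members (16.7%, against 3.05% of all genes), the GABP motif for 16 (22.2%, against 9.93%), the YY1 motif for 10 (13.9%, against 3.19%) and the short CRE for 29 (40.3%, against 23.0%). The full CRE was found for 5 (6.94%, against 2.03%), among them Cycs, and the ERR motif for 6 (8.33%, against 5.38%). A match is a run of letters, not a bound site.

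Values are log2 of the deposited, normalized intensity, and differences are log2 differences ± the standard error of one limma fit over the 10 arrays. Adjusted p-values are limma's, two-sided and adjusted by Benjamini-Hochberg over all 19938 genes, with 0.05 as the threshold. Array medians lay between 29.5 and 31.7 in intensity, and precision is limited by how few arrays a group has. Arrays WT SRBC 1 and Notch2-11cKO SRBC 3 stood apart from their groups (r over all genes at most 0.978 with their group, against at least 0.988 between the other arrays of the same group), and results that rest on them are given without them too. The cDC2 markers Itgax, Zbtb46, Flt3, Sirpa, Irf4, Itgam and H2-Ab1 did not fall in Notch2-11cKO cells past the threshold, while Clec4a4 and Esam fell in both treatments and Cd4 in untreated cells. Itgam was higher in Notch2-11cKO than in WT cells after SRBC, and Cd4 and Itgam fell in WT cells after SRBC. The median difference of the 10 cDC2 markers was -0.56 in untreated and -0.40 in SRBC cells (Notch2-11cKO minus WT). Notch2 itself had a log2 difference of 0.14 in untreated and 0.35 in SRBC cells (Notch2-11cKO minus WT) and did not pass. Where its probes lie relative to the floxed part is unknown here, so these values are no check of the genotypes. In bulk samples such as these, fewer cells of a type and less RNA per cell cannot be told apart.

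Ppargc1a was the member that moved most. On the log2 scale its intensity was 3.05, 3.61 and 3.97 in Notch2-11cKO SRBC cells, 6.12, 6.81 and 6.79 in WT SRBC cells, 3.22 and 3.34 in Notch2-11cKO Untreated cells and 4.18 and 4.49 in WT Untreated cells. Every WT SRBC array lay above every other array, and the 5 Notch2-11cKO arrays lay below every WT array. Ppargc1a rose in WT cells after SRBC by 2.24 ± 0.26 (4.72-fold, adjusted p = 0.00131, n = 3 and 2, limma). In Notch2-11cKO cells the SRBC difference was 0.26 ± 0.26 (adjusted p = 0.801, limma), and the groups overlapped. After SRBC, Ppargc1a was lower in Notch2-11cKO than in WT cells by a log2 difference of -3.03 ± 0.24 (8.15-fold, adjusted p = 3.02e-05, n = 3 each, limma).

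The test of whether the genotypes respond differently did not pass for Ppargc1a. The Notch2-11cKO response minus the WT response was -1.98 ± 0.37 (unadjusted p = 0.000233, adjusted p = 0.146, limma), in a comparison in which 4 of 19938 genes passed. It passed without WT SRBC 1 (-2.20 ± 0.33, adjusted p = 0.0386) and without both arrays that stood apart (-2.42 ± 0.26, adjusted p = 0.00124), and with each of the other 9 arrays left out the adjusted p lay between 0.0571 and 0.670. Untreated Notch2-11cKO cells were also below untreated WT cells, by -1.05 ± 0.29, which missed the threshold (adjusted p = 0.0660, n = 2 each, limma) and passed without WT SRBC 1, Notch2-11cKO SRBC 1 or Notch2-11cKO SRBC 3 (adjusted p = 0.0242, 0.0352 and 0.0326). It also passed without both arrays that stood apart (0.00348), with array weights (0.0105) and with only the untreated groups fitted (0.00262). The test of the genotype difference in response passed with array weights too (-2.27 ± 0.31, adjusted p = 0.0190). The WT response and the genotype difference after SRBC kept their calls whichever array was left out (highest adjusted p = 0.0355 and 0.000317).

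A second probe set for Ppargc1a, dimmer and not used in the fit, gave the same order of groups. It read 2.57, 2.48 and 2.46 in Notch2-11cKO SRBC cells, 4.40, 3.87 and 4.92 in WT SRBC cells, 2.34 and 2.51 in Notch2-11cKO Untreated cells and 2.64 and 2.71 in WT Untreated cells. Its differences were -1.89 ± 0.21 between genotypes after SRBC and 1.72 ± 0.23 for the WT response. The second probe set lay below the median of all genes' mean log2 intensity (5.06) in every group, WT SRBC cells included. The first was dim, below that median, outside WT SRBC cells only. No detection calls were used, so a fold against groups that dim may understate the change.

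**Figure D1:**
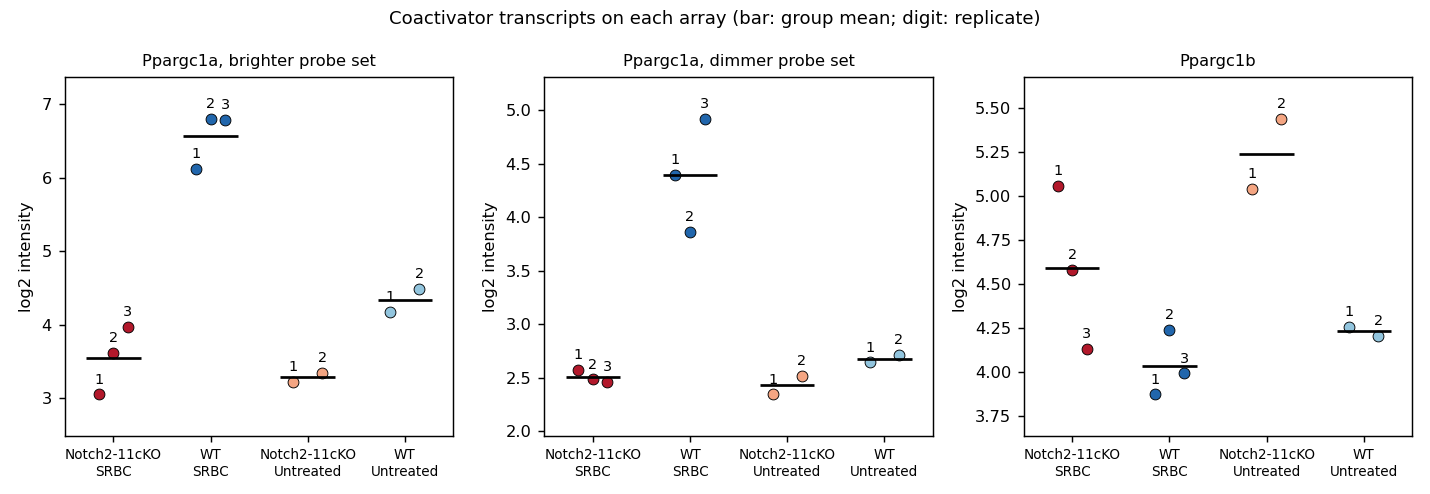
Log2 intensity (vertical axis) of both Ppargc1a probe sets and of Ppargc1b on each array, by group (horizontal axis); points are arrays, digits their replicate numbers and bars group means. In both Ppargc1a panels the 3 WT SRBC arrays lie above all others, while the 2 Notch2-11cKO Untreated arrays of Ppargc1b lie above all WT arrays.

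Ppargc1b, the other coactivator, ran the other way between genotypes. It was dim as well, with a mean log2 intensity of 4.48 over the 10 arrays, below the median of all genes (5.06). Its log2 intensity was 5.06, 4.58 and 4.13 in Notch2-11cKO SRBC cells, 3.87, 4.24 and 3.99 in WT SRBC cells, 5.04 and 5.44 in Notch2-11cKO Untreated cells and 4.26 and 4.21 in WT Untreated cells. The untreated groups did not overlap, whereas Notch2-11cKO SRBC 3 fell inside the range of the WT SRBC arrays. Ppargc1b was higher in untreated Notch2-11cKO cells by 1.01 ± 0.25 (2.01-fold, adjusted p = 0.0443, n = 2 each, limma). Leaving out any 1 of 7 of the 10 arrays ended that call (highest adjusted p = 0.311): both WT Untreated arrays, both Notch2-11cKO Untreated arrays, WT SRBC 2, WT SRBC 3 and Notch2-11cKO SRBC 2. After SRBC the difference was 0.55 ± 0.21 (adjusted p = 0.176, limma), which passed without Notch2-11cKO SRBC 3 (0.78 ± 0.18, adjusted p = 0.0288). Neither genotype's SRBC response of Ppargc1b passed: it was -0.65 ± 0.23 in Notch2-11cKO cells (adjusted p = 0.355, limma) and -0.20 ± 0.23 in WT cells (adjusted p = 0.744, limma).

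Between genotypes after SRBC, 4 members rose and 1 fell in Notch2-11cKO cells, so 5 of 89 passed, beside 5.32% of all genes (3.36% higher and 1.96% lower). The share of members called was near that background. It lay below that of the 1695 genes with a mean log2 intensity above 8, of which 132 passed higher and 95 lower. Of the 89 members, 55 lay above that level. The 4 that rose were Cox6a2, Ndufv3, Cox8a and Uqcr11, and the 1 that fell was Ppargc1a. Without adjustment, 38 members were higher and 3 lower at p under 0.05, against 1814 higher (9.1%) and 1664 lower (8.35%) of all genes. Of the 1695 genes above a mean log2 intensity of 8, 318 were higher and 260 lower at that p. The median difference of the 89 members was 0.38, against -0.02 for all genes and 0.02 for the 9969 genes above the median level. Of the members, 79 were above 0 and 10 below (88.8% above, beside 45.9% of all genes). For 36 members every Notch2-11cKO SRBC array lay above every WT SRBC array (40.4%, beside 9.96% of all genes and 19.1% of the 1695 genes with a mean log2 intensity above 8). For 2 members every Notch2-11cKO SRBC array lay below (2.25%, beside 10.4% of all genes and 15.5% of those above that level). Of the 55 members above that level, 26 were higher without overlap (47.3%) and 0 lower.

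This shift leaned on WT SRBC 1, which was low for the chain. The median log2 intensity of the members was 8.68, 9.02 and 8.98 on the Notch2-11cKO SRBC arrays, 7.94, 8.64 and 8.64 on the WT SRBC arrays, 8.51 and 8.73 on the Notch2-11cKO Untreated arrays and 8.33 and 8.45 on the WT Untreated arrays. WT SRBC 1 was the lowest of the 10 arrays, and every Notch2-11cKO SRBC array was above every WT SRBC array. Without WT SRBC 1 the members' median difference was 0.21 and the count of members higher without overlap was 39 (beside 16.4% of all genes, since fewer arrays separate more easily). With quantile normalization of all 10 arrays that count was 25, beside 10.3% of all genes. Without both arrays that stood apart 16 members passed, 14 higher and 2 lower (18% of members), and the share of all genes that passed was also larger, at 11.9%.

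**Figure D2:**
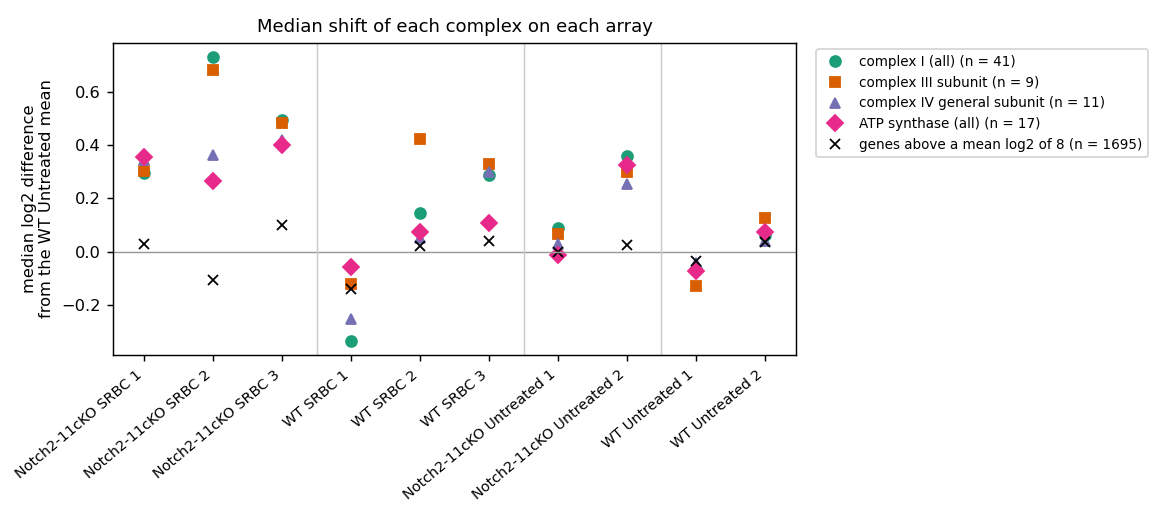
For each array (horizontal axis), the median over genes of the log2 difference from the WT Untreated mean (vertical axis), for complexes I, III, IV (general subunits) and ATP synthase, and for all genes above a mean log2 intensity of 8. The 3 Notch2-11cKO SRBC arrays lie at 0.27 or above for each complex, and WT SRBC 1 lies below 0 for each.

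Complex I is the entry point for NADH. Its 28 accessory subunits, which surround the catalytic core, were all above 0 in Notch2-11cKO SRBC against WT SRBC cells, with a median difference of 0.54 and a range of 0.16 (Ndufs4) to 0.92 (Ndufv3). Of these, 1 passed and 18 reached an unadjusted p under 0.05, beside 3.36% and 9.1% of all genes that were higher at these thresholds. Of the 1695 genes above a mean log2 intensity of 8, 132 and 318 were higher at these thresholds. Ndufv3, a small subunit of the NADH-binding module, read 8.18, 8.60 and 8.20 in Notch2-11cKO SRBC cells, 7.21, 7.49 and 7.54 in WT SRBC cells, 8.10 and 8.12 in Notch2-11cKO Untreated cells and 8.12 and 7.64 in WT Untreated cells. The SRBC groups did not overlap, and the untreated groups did. Ndufv3 was higher in Notch2-11cKO cells after SRBC by 0.92 ± 0.19 (1.89-fold, adjusted p = 0.0176, n = 3 each, limma), a call that was lost without Notch2-11cKO SRBC 2 (adjusted p = 0.0655).

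The 6 core subunits measured had a median difference of 0.33 after SRBC and none passed. Ndufs1, the large iron-sulfur subunit, was 0.09 ± 0.17 higher, Ndufv1, which binds NADH, 0.46 ± 0.22, and Ndufs7, near the ubiquinone site, 0.59. The 7 assembly factors did not share the shift, with a median of 0.02. Their median log2 intensity was 6.33, against 8.59 for the accessory subunits, so a shift of theirs may be understated. Ndufaf1, an early assembly factor, stood at -0.52 ± 0.23 (adjusted p = 0.266, limma) and passed without WT SRBC 1 (adjusted p = 0.0368).

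Ndufaf7, a methyltransferase needed for complex I assembly, was the respiratory chain gene with the largest fall. It read 5.97, 5.88 and 5.90 in Notch2-11cKO SRBC cells, 6.28, 6.29 and 6.56 in WT SRBC cells, 5.79 and 6.28 in Notch2-11cKO Untreated cells and 7.10 and 7.23 in WT Untreated cells. WT Untreated cells had the highest values, with no overlap with any other group. Ndufaf7 fell in untreated Notch2-11cKO cells by a log2 difference of -1.13 ± 0.20 (2.19-fold, adjusted p = 0.00682, n = 2 each, limma) and in WT cells after SRBC by -0.79 ± 0.18 (1.73-fold, adjusted p = 0.0383, n = 3 and 2, limma). After SRBC the genotypes differed by -0.46 ± 0.16 (adjusted p = 0.158, limma), and the SRBC difference in Notch2-11cKO cells was -0.12 and did not pass. The untreated call did not hold without WT Untreated 2 (adjusted p = 0.0702) or Notch2-11cKO Untreated 1 (0.0895). The WT response was lost without 6 of the 10 arrays in turn (highest adjusted p = 0.245): both WT Untreated arrays, WT SRBC 2 and 3, and Notch2-11cKO SRBC 1 and 2.

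Complex III carries electrons from ubiquinone to cytochrome c. All 9 of its subunits were above 0 in Notch2-11cKO SRBC against WT SRBC cells, with a median of 0.48, and 1 passed, beside 3.36% of all genes called higher. Uqcr11, a small accessory subunit, read 8.03, 8.27 and 7.92 in Notch2-11cKO SRBC cells, 7.54, 7.00 and 7.27 in WT SRBC cells, 7.62 and 8.17 in Notch2-11cKO Untreated cells and 7.31 and 7.57 in WT Untreated cells. Neither treatment's genotype groups overlapped. After SRBC, Uqcr11 was higher in Notch2-11cKO cells by 0.80 ± 0.21 (1.75-fold, adjusted p = 0.0464, n = 3 each, limma), a call lost without 6 of the 10 arrays in turn (highest adjusted p = 0.167): both WT Untreated arrays, WT SRBC 2 and 3, and Notch2-11cKO SRBC 1 and 2. The Uqcr11 call was also lost with quantile normalization. Of the subunits that carry electrons, cytochrome c1 (Cyc1) differed by 0.02 and the iron-sulfur protein Uqcrfs1 by 0.19, and neither passed. The core proteins, which hold no redox centre, differed by 0.48 (Uqcrc1) and 0.07 (Uqcrc2) and did not pass either. Cycs, the mobile carrier itself, differed by 0.33 and did not pass.

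Complex IV transfers electrons to oxygen, and several of its subunits exist as a general form and a form restricted to muscle, lung, testis or other tissues. All 11 general subunits were above 0 after SRBC, with a median difference of 0.36, whereas 3 of the 8 restricted isoforms were, with a median of -0.07. Their levels differed too, as all 11 general subunits but only 4 of the 8 restricted isoforms lay above the median level of all genes. The median log2 intensity was 10.3 for the general subunits and 5.06 for the restricted isoforms, so a shift of the restricted isoforms may be understated. Cox8a, the general form of subunit 8, read 10.09, 10.25 and 9.87 in Notch2-11cKO SRBC cells, 9.06, 9.23 and 9.64 in WT SRBC cells, 9.99 and 10.02 in Notch2-11cKO Untreated cells and 9.72 and 9.47 in WT Untreated cells. Neither treatment's genotype groups overlapped. It was higher in Notch2-11cKO cells after SRBC by 0.76 ± 0.18 (1.69-fold, adjusted p = 0.0333, n = 3 each, limma), a call lost without any 1 of 8 of the 10 arrays (highest adjusted p = 0.112), the exceptions being WT SRBC 3 and Notch2-11cKO SRBC 3. Its restricted relatives Cox8b, of muscle, and Cox8c, of testis, stood at -0.06 and -0.22 and did not pass.

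Cox6a2 was the restricted isoform that passed. It encodes the heart and skeletal muscle form of subunit 6A, which is also known from plasmacytoid dendritic cells. Its log2 intensity was 7.78, 8.32 and 7.27 in Notch2-11cKO SRBC cells, 5.94, 6.12 and 6.31 in WT SRBC cells, 7.41 and 7.55 in Notch2-11cKO Untreated cells and 6.03 and 6.17 in WT Untreated cells. All 5 Notch2-11cKO arrays lay above all 5 WT arrays. Cox6a2 was higher in Notch2-11cKO cells by 1.66 ± 0.24 after SRBC (3.17-fold, adjusted p = 0.00164, n = 3 each, limma) and by 1.38 ± 0.29 without treatment (2.60-fold, adjusted p = 0.0176, n = 2 each, limma). The call after SRBC held whichever array was left out (highest adjusted p = 0.00943), whereas the untreated one was lost without any 1 of the 4 untreated arrays (adjusted p = 0.0904 to 0.143). The general form Cox6a1 differed by 0.32 after SRBC and by -0.01 without treatment, and did not pass in either. Of the pDC markers measured, Tcf4 was higher in Notch2-11cKO cells in both treatments and Bst2 after SRBC, 2 of 5 in all, and the summed intensity of the 5 markers was 687 to 927 in Notch2-11cKO SRBC, 386 to 416 in WT SRBC, 650 to 789 in Notch2-11cKO Untreated and 356 to 439 in WT Untreated cells. Their part in the Cox6a2 difference was not tested.

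Other pairs of forms had genotype differences after SRBC that did not pass. Cox4i1, the general subunit 4, stood at 0.37 and its lung form Cox4i2 at -0.08. Cox7a2 stood at 0.36, the muscle form Cox7a1 at 0.43 (it passed without both arrays that stood apart) and the supercomplex factor Cox7a2l at 0.14. Cox6b1 stood at 0.39 and the testis form Cox6b2 at 0.70, and Ndufa4, now known as a complex IV subunit, at 0.21 with its hypoxia-inducible relative Ndufa4l2 at -0.25. Cox5a and Cox5b, which encode different subunits, stood at 0.53 and 0.17. Cox4i2, Cox7a1 and Ndufa4l2 were dim, with intensities close to or below the array medians, so a shift of theirs may be understated.

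**Figure D3:**
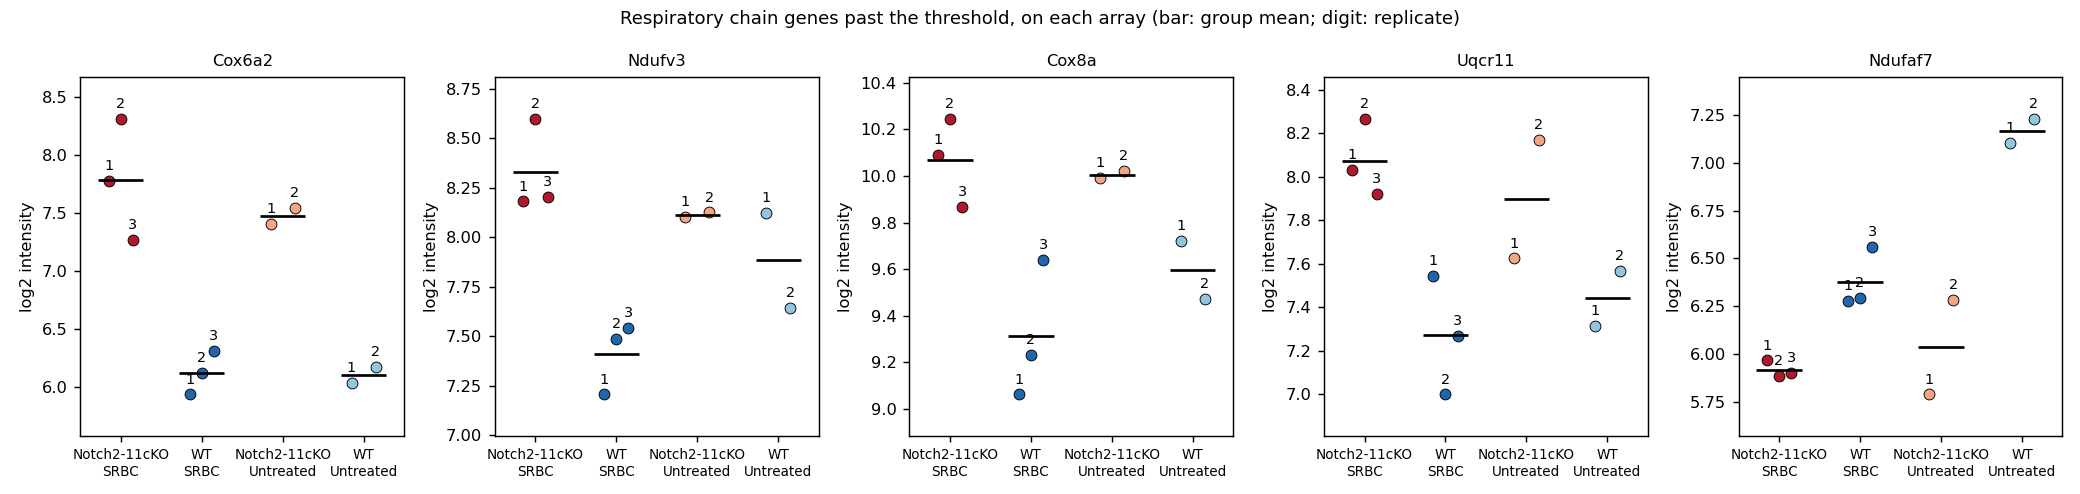
Log2 intensity (vertical axis) on each array of the respiratory chain genes other than the coactivators that passed in at least 1 comparison, by group (horizontal axis); points are arrays, digits their replicate numbers and bars group means. Cox6a2, Ndufv3, Cox8a and Uqcr11 are higher on all Notch2-11cKO SRBC than on all WT SRBC arrays, and Ndufaf7 is highest on the WT Untreated arrays.

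ATP synthase has a catalytic F1 head and a membrane part with stalks. None of its 17 subunits passed in any comparison of the 10 arrays as deposited and equally weighted; Atp5md passed in the WT response with quantile normalization or array weights, and Atp5mpl in the Notch2-11cKO response with array weights. After SRBC 15 of 17 were above 0 in Notch2-11cKO against WT cells, with a median of 0.30. The F1 subunits alpha (Atp5a1) and beta (Atp5b) stood at 0.23 and 0.24, and the largest differences were those of Atp5k (0.77) and Atp5g2 (0.75), subunits of the membrane part. In this comparison Atp5g2 passed without WT SRBC 1, Atp5e and Atp5mpl passed without Notch2-11cKO SRBC 3, and all 3 passed without both arrays or with array weights.

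**Figure D4:**
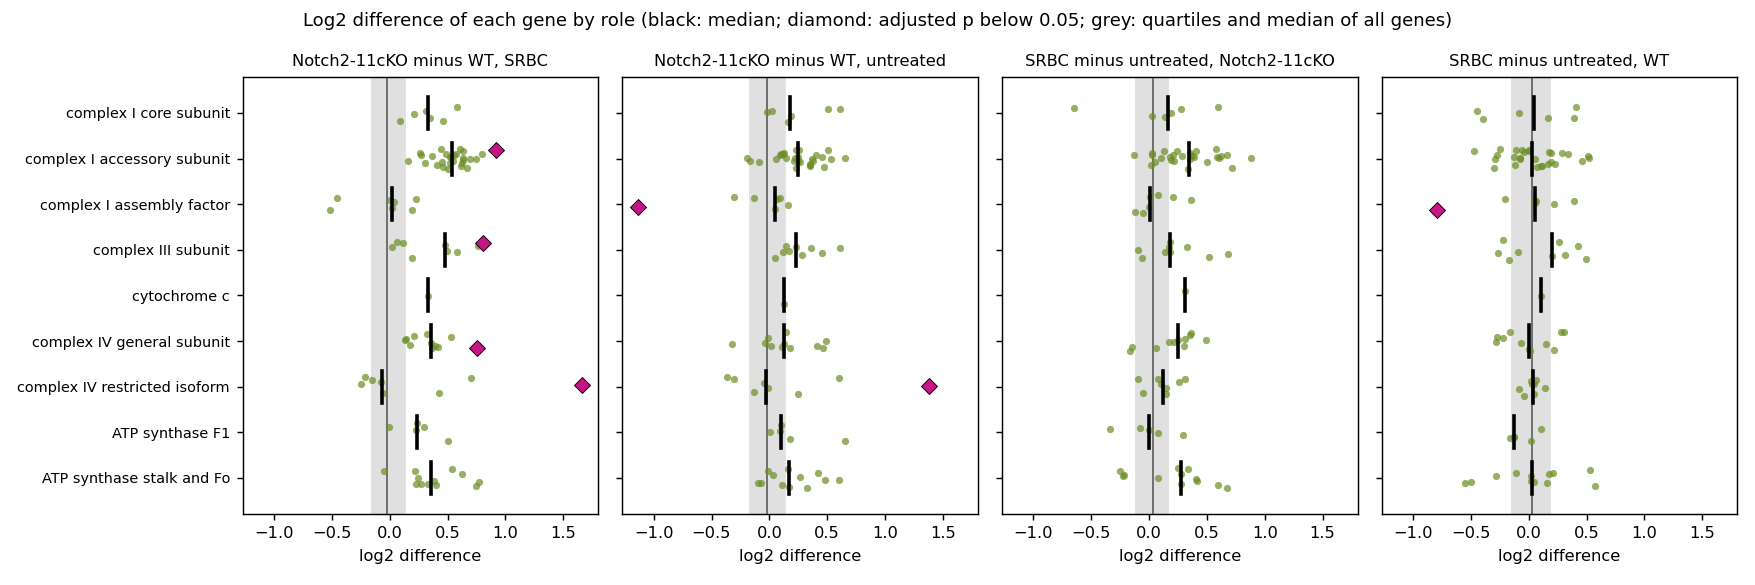
Log2 difference (horizontal axis) of each respiratory chain gene, by role (vertical axis), in 4 comparisons; black bars are medians of a role, diamonds genes with an adjusted p below 0.05, and grey the median and quartiles of all genes. Between genotypes after SRBC the medians of the complex I, III, general complex IV and ATP synthase subunits lie between 0.24 and 0.54, while those of the assembly factors and restricted isoforms lie at 0.02 and -0.07. Of the 8 restricted isoforms, only 4 lay above the median level of all genes. The assembly factors were dimmer than the complex I accessory subunits (median log2 intensity 6.33 against 8.59).

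Without treatment 3 members passed between genotypes, 2 higher (Cox6a2 and Ppargc1b) and 1 lower (Ndufaf7) in Notch2-11cKO cells, beside 5.11% of all genes (2.95% higher and 2.16% lower). The members' median difference was 0.16, against -0.02 for all genes, and 70 of 89 were above 0 (78.7%, beside 45.6% of all genes). For 39 members both Notch2-11cKO Untreated arrays lay above both WT Untreated arrays (43.8%, beside 22% of all genes and 35.2% of those above a mean log2 intensity of 8), and for 5 both lay below (5.62%, beside 26.8% of all genes and 33.6% of those above that level). Of the 55 members above that level, 28 were higher without overlap (50.9%) and 0 lower. The median of the members was 0.05 without Notch2-11cKO Untreated 2 and 0.30 without Notch2-11cKO Untreated 1, so it moved more than 1.5 times with either array. Ndufs3, a core subunit of complex I, had a difference of 0.61 ± 0.25 (adjusted p = 0.276, limma) and Cox5a one of 0.48 ± 0.19 (adjusted p = 0.251, limma). Below 0, Cox8c stood at -0.31 and Ndufa4l2 at -0.36, and neither passed.

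The SRBC response of WT cells held 2 called members, Ppargc1a higher and Ndufaf7 lower, beside 3.79% of all genes (1.82% higher and 1.97% lower). So while Ppargc1a rose, the members' median difference was 0.03 (0.02 for all genes), with 53 of 89 above 0 (59.6%, beside 54.4% of all genes). There were 8 members higher on every WT SRBC array than on both WT Untreated arrays (8.99%, beside 17.8% of all genes and 22.7% of those above a mean log2 intensity of 8) and 7 lower (7.87%, beside 15.7% and 28.4%). Of the 55 members above that level, 5 were higher without overlap (9.09%) and 2 lower (3.64%). The smallest p-values after Ppargc1a among higher members were those of Atp5md (0.57 ± 0.21, adjusted p = 0.170, limma), Uqcrfs1 (0.49 ± 0.19, adjusted p = 0.205) and Atp5j (0.53 ± 0.22, adjusted p = 0.246). Among lower members Ndufv3 stood at -0.47 ± 0.21 (adjusted p = 0.296), Atp5g1, a form of the ring subunit c, at -0.50 ± 0.24 (adjusted p = 0.332) and Cox7a2l at -0.27 ± 0.16 (adjusted p = 0.431). This comparison turned on WT SRBC 1. Without it the median of the members was 0.17, 40 members were higher without overlap (beside 27.3% of all genes) and Atp5md passed too. Without both arrays that stood apart 13 members passed, 11 higher and 2 lower (14.6% of members), beside 11.5% of all genes. The median was -0.06 without WT SRBC 3.

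In Notch2-11cKO cells no member passed in the SRBC response, where 0.306% of all genes did (0.14% higher and 0.166% lower). At an unadjusted p under 0.05, 14 members were higher and 2 lower, against 1045 (5.24%) and 949 (4.76%) of all genes. Of the 1695 genes above a mean log2 intensity of 8, 155 were higher and 163 lower at that p. The members' median difference was 0.21, against 0.03 for all genes, and 72 of 89 were above 0 (80.9%, beside 56.2% of all genes). For 30 members every Notch2-11cKO SRBC array lay above both Notch2-11cKO Untreated arrays (33.7%, beside 16.1% of all genes and 18% of those above a mean log2 intensity of 8), and for 2 every one lay below (2.25%, beside 12.2% and 20.1%). Of the 55 members above that level, 26 were higher without overlap (47.3%) and 0 lower. Atp5mpl, a small ATP synthase subunit, had a difference of 0.67 ± 0.18 (adjusted p = 0.173, limma), Ndufv2 one of 0.60 ± 0.19 (adjusted p = 0.261), Ndufa1 one of 0.88 ± 0.28 (adjusted p = 0.283) and Cox6b1 one of 0.49 ± 0.16 (adjusted p = 0.291). Ndufs8, a core iron-sulfur subunit of complex I, stood at -0.65 ± 0.26 (adjusted p = 0.432). Without both arrays that stood apart Atp5mpl and Ndufs8 passed, as did 2% of all genes.

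No member passed the test of a genotype difference in response, where 0.0201% of all genes did (0.01% in each direction); 2 were higher (Ndufaf7 and Ndufv3) and 1 lower (Ppargc1a) at an unadjusted p under 0.05, against 667 (3.35%) and 622 (3.12%) of all genes. The members' median was 0.19, against 0.01 for all genes, and 0.03 without WT SRBC 1. Comparisons that share arrays are not independent, and the WT SRBC arrays enter this difference, the WT response and the genotype comparison after SRBC.

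The lists of neighbouring genes were tested in the same fit. None of the 8 complex II genes and none of the 12 ubiquinone synthesis genes or 18 assembly genes of complexes III and IV measured passed in any comparison. At an unadjusted p under 0.05 in untreated cells, the complex II subunit genes Sdhc and Sdhb had higher values in Notch2-11cKO than in WT cells, by 0.59 and 0.48. They are named for their p within the list, and 1471 of 19938 genes were higher at that p. Of 7 complex I assembly genes without the Nduf name, Timmdc1, an inner membrane assembly factor, rose in WT cells after SRBC by 0.95 ± 0.17 (adjusted p = 0.0122, limma). None of the 13 genes of the mitochondrial genome was measured by a probe set with 1 symbol.

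Among 26 measured PGC-1 partners and regulators, Pparg, encoding the nuclear receptor through which PGC-1alpha was identified, rose in Notch2-11cKO cells in both treatments. Its log2 intensity was 7.48, 8.10 and 7.43 in Notch2-11cKO SRBC, 4.91, 5.88 and 6.35 in WT SRBC, 7.66 and 7.80 in Notch2-11cKO Untreated and 4.72 and 5.19 in WT Untreated cells. All Notch2-11cKO arrays lay above all WT arrays, by 1.95 ± 0.32 after SRBC (adjusted p = 0.00435, limma) and 2.77 ± 0.39 without treatment (adjusted p = 0.00161, limma). Ppard, the related receptor PPAR-delta, rose in untreated Notch2-11cKO cells (0.76 ± 0.18, adjusted p = 0.0321). Gabpb1, the beta subunit of GABP, rose in WT cells after SRBC (1.03 ± 0.18, adjusted p = 0.0106) and was lower in Notch2-11cKO than in WT cells after SRBC (-0.65 ± 0.16, adjusted p = 0.0413). Tfb2m, a mitochondrial transcription factor (-0.64 ± 0.16, adjusted p = 0.0465), and Kat2a, an acetyltransferase that acts on PGC-1alpha (-0.83 ± 0.20, adjusted p = 0.0479), fell in WT cells after SRBC. The other 21 of the 26, among them Nrf1, Gabpa, Esrra and Tfam (named for their known roles), did not pass in any comparison.

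Of 13 measured genes of fatty acid oxidation and mitochondrial defence that PGC-1 is known to regulate, Cpt1a, which admits fatty acids to mitochondria, was higher in untreated Notch2-11cKO cells (1.32 ± 0.26, adjusted p = 0.0106, limma). Sod2, the mitochondrial superoxide dismutase (1.52 ± 0.34, adjusted p = 0.0246), and Txn2, mitochondrial thioredoxin (0.79 ± 0.20, adjusted p = 0.0398), were higher in Notch2-11cKO cells after SRBC. No gene of this list passed in the WT response, in which Ppargc1a rose.

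Markers of other cells moved with genotype and treatment beside these results. All 6 markers of ESAM-low cDC2 were higher in Notch2-11cKO cells in both treatments, with a summed intensity of 7792 to 8738 in Notch2-11cKO SRBC, 1138 to 1592 in WT SRBC, 10490 to 11880 in Notch2-11cKO Untreated and 1465 to 1689 in WT Untreated cells. Of 6 measured monocyte markers 4 were higher, 3 of which (Ccr2, Cx3cr1 and Lyz2) are on the ESAM-low list too, and of 9 macrophage markers 7 were, in both treatments. In WT cells after SRBC, the comparison in which Ppargc1a rose, the macrophage markers C1qc, Vcam1 and Spic rose too. The summed intensity of the 9 was 3250 to 4063 in Notch2-11cKO SRBC, 1495 to 2158 in WT SRBC, 3378 to 4146 in Notch2-11cKO Untreated and 878 to 958 in WT Untreated cells. Of 6 cDC1 markers, Clec9a, Cadm1, Irf8 and Naaa were higher in untreated Notch2-11cKO cells, Cadm1 and Naaa after SRBC, and Xcr1 and Irf8 rose in WT cells after SRBC. Their summed intensity was 985 to 1230 in Notch2-11cKO SRBC, 592 to 705 in WT SRBC, 1351 to 1414 in Notch2-11cKO Untreated and 444 to 569 in WT Untreated cells. The neutrophil marker S100a8, 1 of 5, was higher in Notch2-11cKO cells after SRBC and rose after SRBC in both genotypes, while the B cell marker Ms4a1 (1 of 4) was lower in Notch2-11cKO cells in both treatments. Of 4 proliferation genes, Top2a was lower in Notch2-11cKO cells in both treatments and Mki67 in untreated cells. Of 11 measured genes of digestion stress 3 fell after SRBC in Notch2-11cKO and 6 in WT cells, and Hspa1a was higher in Notch2-11cKO than in WT cells after SRBC (median of the 11, 0.51), with summed intensities of 5666 to 12090 in Notch2-11cKO SRBC, against 19370 to 19960 in Notch2-11cKO Untreated, and of 6051 to 10120 in WT SRBC, against 21290 to 23580 in WT Untreated cells. No T cell, NK cell or erythroid marker passed in any comparison. The part of these differences in those of the respiratory chain was not tested.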

How the data were processed

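Per the labels' protocols, cDC2 were sorted after spleen digestion and CD11c enrichment, and biotin-labelled samples were prepared with the Ambion WT Expression and GeneChip WT Terminal Labeling kits. The authors deposited linear intensity per probe set; array medians lie close together, so the values appear normalized, but how this was done was not given in the sources used here. Of 28853 probe sets 21789 listed 1 gene symbol, 1621 several and 5443 none in the platform annotation; probe sets with several were not named, among them 6 that list a symbol of the rule (those of Cox7c, for example). Each of 19938 genes was represented by its probe set with the highest mean log2 intensity over the 10 arrays; 19 of the 89 members had more than 1. Cross-hybridisation with processed pseudogenes, common for these gene families, was not tested. Levels of different probe sets were not compared as amounts.

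Values were log2 transformed, and dim genes were kept. A single limma model with a mean for each of 4 groups (trended eBayes, residual degrees of freedom 6, prior 5.25) gave 5 comparisons, two-sided, with Benjamini-Hochberg adjustment over all genes. The fit was tested on simulated data with noise drawn independently for each gene and array. No simulated array stood apart, so that test does not cover the arrays that did here. Alternatives changed the probe set rule, level filter, normalization, variance model, arrays fitted and a replicate block. The members, lists and comparisons were chosen with earlier results of these data known. Named genes were the coactivators, a set list of subunits and isoforms, members past the threshold (up to 12 in each direction), where fewer than 4 passed in a direction the 4 with the smallest p there, and the members highest or lowest in level per complex or with an array far from its group; of other lists, genes past the threshold or up to 2 by p. Not all of these are printed. Software was R 4.3.3, limma 3.58.1, Python 3.11.15, NumPy 2.4.6, pandas 2.3.3 and matplotlib 3.10.9.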

Additional observations from a re-analysis of the deposited data

Results flagged for a closer look

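Ndufv3, a subunit of complex I, had SRBC differences of opposite sign in the genotypes, and neither passed: 0.21 ± 0.21 in Notch2-11cKO cells (adjusted p = 0.801, limma) and -0.47 ± 0.21 in WT cells (adjusted p = 0.296, limma). All 3 Notch2-11cKO SRBC arrays (8.18 to 8.60, log2 intensity) were above both Notch2-11cKO Untreated arrays (8.10 and 8.12), while all 3 WT SRBC arrays (7.21 to 7.54) were below both WT Untreated arrays (8.12 and 7.64). The Notch2-11cKO response minus the WT response was 0.68 (log2), and the limma test of that difference did not pass (adjusted p = 0.761).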

How the results depend on the processing

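The number of members past the threshold depended on the processing, and so did the share of all genes, given after each count; the cause was not tested unless named. Between genotypes after SRBC (5 members, 5.32% of all genes) it was 8 with only genes above the median level, where fewer genes are tested (11.3%), 8 without the mean-variance trend (5.82%), 12 with array weights (8.1%) and 2 with only the groups compared, where fewer arrays enter (3.14%). The WT response (2 members, 3.79%) held 1 with only genes above the median level, which leave out Ppargc1a (9.23%), 4 with quantile normalization (3.82%), 4 with array weights (9.46%) and 1 with only the groups compared (2.8%). The untreated genotypes (3 members, 5.11%) held 6 with only the groups compared (9.86%). With array weights the Notch2-11cKO response held 1 member (1.34%) and the interaction 1 (0.316%), against 0 each (0.306% and 0.0201%). Without WT SRBC 1 and Notch2-11cKO SRBC 3 together the counts were 7 untreated (10%), 16 after SRBC (11.9%), 13 in the WT response (11.5%), 2 in the Notch2-11cKO response (2%) and 1, Ppargc1a, in the interaction (3.03%). Leaving out each array in turn gave 0 to 4 members between untreated genotypes (2.1% to 6.97%), 2 to 11 after SRBC (3.26% to 6.3%), 1 to 3 in the WT response (0.507% to 6.68%), 0 in the Notch2-11cKO response (0.01% to 0.918%) and 0 to 1 in the interaction (0% to 0.221%); where a group was left with 1 array, that array was assumed to vary like the others.

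Of same-numbered arrays in different groups, 7 of 13 pairs had a correlation of deviations over 0.1 (median 0.10), against 7 of 24 differently numbered pairs (median -0.10). In a group of 2 arrays the deviations mirror each other, so these pairs are not independent and cannot decide whether the numbers pair the arrays. Between the SRBC groups, same-numbered arrays had correlations of 0.48 (number 1), -0.22 (number 2) and 0.40 (number 3). The labels name no shared source, so the main fit did not pair the arrays. With the replicate number as a block the counts were 4 untreated (5.89%), 6 after SRBC (6.62%), 2 in the WT response (3.59%), 0 in the Notch2-11cKO response (0.251%) and 1 in the interaction (0.0301%). Under it Ppargc1a passed in the interaction (adjusted p = 0.0213) and between untreated genotypes (adjusted p = 0.00491), and Uqcr11 after SRBC missed (adjusted p = 0.0501).

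Members higher without overlap between genotypes after SRBC (36, beside 9.96% of all genes) numbered 25 with quantile normalization (10.3%). Members higher without overlap in the WT response (8, beside 17.8% of all genes) numbered 18 with quantile normalization (15.4%) and 40 without the arrays that stood apart (27.3%). Leaving out each array, which makes separation easier for all genes, gave 9 to 40 there (24.3% to 30.9%), 40 to 67 between untreated genotypes (39, 22%, against 32.7% to 35.3%), 38 to 52 between genotypes after SRBC (36, 9.96%, against 12.7% to 16.4%) and 32 to 55 in the Notch2-11cKO response (30, 16.1%, against 21.1% to 29.5%), alternatives chosen after seeing the data. Over all these settings the members' median lay between 0.05 and 0.30 untreated, 0.20 and 0.53 after SRBC, -0.06 and 0.17 in the WT response, 0.14 and 0.32 in the Notch2-11cKO response and 0.03 and 0.31 in the interaction. In the WT response the median changed sign between settings. No named member past the threshold changed sign. Dim probe sets such as those of Ppargc1a and Ppargc1b limit how far a fold can be read.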
